A study of Eurytemora affinis with 15 samples.

Results

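The higher and the lower concentration of estuarine sediment elutriate were compared in adult males of the copepod Eurytemora affinis, over elutriates of both sites studied. The comparison was made up of 12 of the 15 libraries of the series, 6 at 2500 mg/L (3 Fatouville and 3 Tancarville) and 6 at 350 mg/L (3 Fatouville and 3 Tancarville). The site was a term of the model. The 3 Control libraries, of males held in water without elutriate, stayed outside the fit and are given as levels. Every library, Control included, was made from a pool of 30 whole males, taken in the wild from the Seine estuary and exposed for 72 h, so each value is a mean over animals of a wild population and over all their tissues. Of 23728 genes, 18799 had a normalised read count of at least 10 in at least 3 of the 12 libraries and were tested. The question put by the design is whether the response of the animals depends on how much elutriate they received.

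Eurytemora affinis is a calanoid copepod that feeds on suspended particles in the turbid water of estuaries, where it is a main food of fish larvae and mysids. An elutriate holds what sediment gives up when it is shaken with water, such as dissolved metals, organic contaminants, nutrients and fine organic matter. Crustaceans exposed to contaminants are known to adjust genes for detoxifying enzymes, metal-binding proteins, heat shock proteins, cuticle and digestion. The files do not pair their identifiers with gene names, so no role is given to any gene here, and the labelled sex and stage could not be set against marker genes.

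Values are normalised read counts, that is, reads of a gene divided by 1 size factor per library. The 12 libraries held 13.6 to 17.2 M reads in genes. Libraries of the same group correlated at 0.940 to 0.987 (Spearman, over genes). A log2 fold change is 2500 over 350 mg/L on the scale of log2(normalised count + 1), which gives too small a change for genes of low count, and a gene was called changed at a limma adjusted p below 0.05.

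Whole profiles lay on average further along one axis at the higher concentration, but not in every pool, and the difference did not pass adjustment. The first principal component, which held 45.4% of the variance over the 12 libraries, placed the Fatouville 2500 mg/L libraries at 84.9, 72.4 and 49.4, against -55.2, -4.12 and -66.2 for Fatouville 350 mg/L. For Tancarville it placed the 2500 mg/L libraries at -51.2, -4.72 and 73.8, against -0.183, -35.4 and -63.4 for 350 mg/L. The Fatouville concentrations did not overlap on this component, whereas the Tancarville ones did, with replicate 1 and 2 at 2500 mg/L lying within the range of the 350 mg/L libraries and replicate 3 above it. Over both sites the component averaged 37.4 ± 54.0 at 2500 mg/L and -37.4 ± 29.4 at 350 mg/L (SD, n = 6 each). The difference of 74.8 gave a 2-sided exact permutation p of 0.025 when labels were permuted within sites, and 0.1 after Benjamini-Hochberg adjustment over 4 such library measures. Leaving out Fatouville 2500 mg/L replicate 2 gave a difference of 72.7 (unadjusted exact permutation p = 0.05). Leaving out replicate 3 of Tancarville gave 57.6 for the library at 2500 mg/L (exact permutation p = 0.05) and 68.2 for the one at 350 mg/L (exact permutation p = 0.06).

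**Figure D1:**
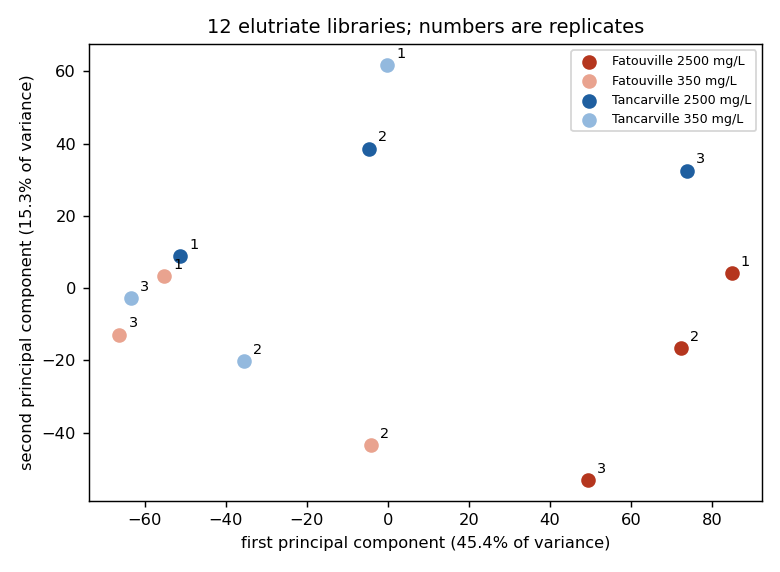
First (x axis) and second (y axis) principal component scores of the 12 elutriate libraries, on log2(normalised count + 1), with 1 point per library and the replicate number beside it. The 3 Fatouville 2500 mg/L libraries and Tancarville 2500 mg/L replicate 3 lie at the right, from 49.4 to 84.9, and all 350 mg/L libraries at or left of -0.183.

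Over both sites the other library measures did not separate the concentrations. Reads in genes averaged 14.97 ± 1.35 M at 2500 mg/L and 15.9 ± 0.472 M at 350 mg/L (SD, n = 6 each, exact permutation p = 0.14). The number of genes detected, thinned to the depth of the shallowest library, averaged 20690 ± 137 at 2500 mg/L and 20583.5 ± 62.4 at 350 mg/L (n = 6 each, exact permutation p = 0.08). For Fatouville it was 20795, 20826 and 20820 at 2500 mg/L, against 20542, 20680 and 20527 at 350 mg/L, without overlap. The Tancarville concentrations overlapped in this number. The 100 most abundant genes took 24.9 ± 2.20% of the reads at 2500 mg/L and 25.9 ± 1.63% at 350 mg/L (n = 6 each, exact permutation p = 0.34).

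No single gene passed the test of concentration over both sites. By limma, 0 of 18799 genes (0%) were called, and the smallest adjusted p was 0.127. Without adjustment, 3097 genes had a limma p under 0.05 (16.5% of those tested), of which 1857 were higher (9.88%) and 1240 lower (6.6%). On the recovered reads edgeR called 17 genes, all higher, and DESeq2 called 768, 633 higher and 135 lower. All 17 edgeR calls and all 768 DESeq2 calls had the same sign of change within both sites, against 60% of all genes tested. A call over both sites favours a shared sign, so these counts are a description. A limma fit of the same 12 libraries had a term for each of the 4 groups, with the concentration difference averaged over the sites. It called 133 genes, 129 higher and 4 lower. Over the 12 libraries the count of 0 is thus that of the additive model. A fit of all 15 libraries, also with group terms, called 0.

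The 2 genes of smallest p in each direction were a pair with small, even differences and a pair with few reads and larger differences. LOC111697179, the gene with the smallest p of all, had 632, 779 and 635 normalised counts in the Fatouville 2500 mg/L libraries and 510.4, 578 and 537 in the Tancarville 2500 mg/L ones. In the 350 mg/L libraries of Fatouville it had 501, 426 and 488, and in those of Tancarville 329, 438 and 371. All 6 values at 2500 mg/L lay above all 6 at 350 mg/L. The log2 fold change was 0.52 (SE 0.09, 95% interval 0.33 to 0.71, limma adjusted p = 0.127), with 0.53 within Fatouville and 0.52 within Tancarville. Its Control libraries were at 486, 439.8 and 524, the first pair of them within the range of the Fatouville 350 mg/L libraries.

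LOC111713061 showed the opposite order. It had 234, 189.7 and 217 normalised counts at Fatouville 2500 mg/L and 266, 249 and 265 at Tancarville 2500 mg/L. In the 350 mg/L libraries of Fatouville it had 298, 275 and 326, and in those of Tancarville 376, 314 and 318. Again the 6 values of each concentration did not overlap. The log2 fold change was -0.43 (SE 0.09, limma adjusted p = 0.13), and Control was at 277, 305 and 268.

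Among genes with few reads, LOC111711825 held, as normalised counts at 2500 mg/L, 10.5, 21.2 and 14.9 (Fatouville) and 24.6, 12.8 and 13.2 (Tancarville). The 350 mg/L libraries held 32.9, 45.2 and 30.9 (Fatouville) and 57.0, 27.6 and 38.4 (Tancarville). The concentrations did not overlap here either. The log2 fold change was -1.22 (SE 0.25, limma adjusted p = 0.13), and Control was at 31.0, 15.3 and 28.4. LOC111713787 held, as normalised counts at 2500 mg/L, 41.8, 159 and 70.0 (Fatouville) and 13.4, 8.17 and 18.8 (Tancarville). The 350 mg/L libraries held 2.00, 12.2 and 3.86 (Fatouville) and 0.966, 0 and 5.90 (Tancarville). The concentrations overlapped through Fatouville 350 mg/L replicate 2 alone, and the log2 fold change was 3.15 (SE 0.53, limma adjusted p = 0.127). Control 3, at 70.0, was as high as Fatouville 2500 mg/L replicate 3, while Control 1 and 2 were at 2.82 and 3.82.

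None of these 4 genes passed in the additive limma fit. With the 4 group terms LOC111697179, LOC111713787 and LOC111713061 passed (limma adjusted p = 0.0205, 0.0181 and 0.0412). LOC111697179 also passed by edgeR (adjusted p = 0.048), all 4 passed by DESeq2 (adjusted p = 1.61e-05 to 0.00351), and LOC111713787 passed without Tancarville 350 mg/L replicate 3 (limma adjusted p = 0.0493). Over all alternatives the highest adjusted p of each was 0.321.

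**Figure D2:**
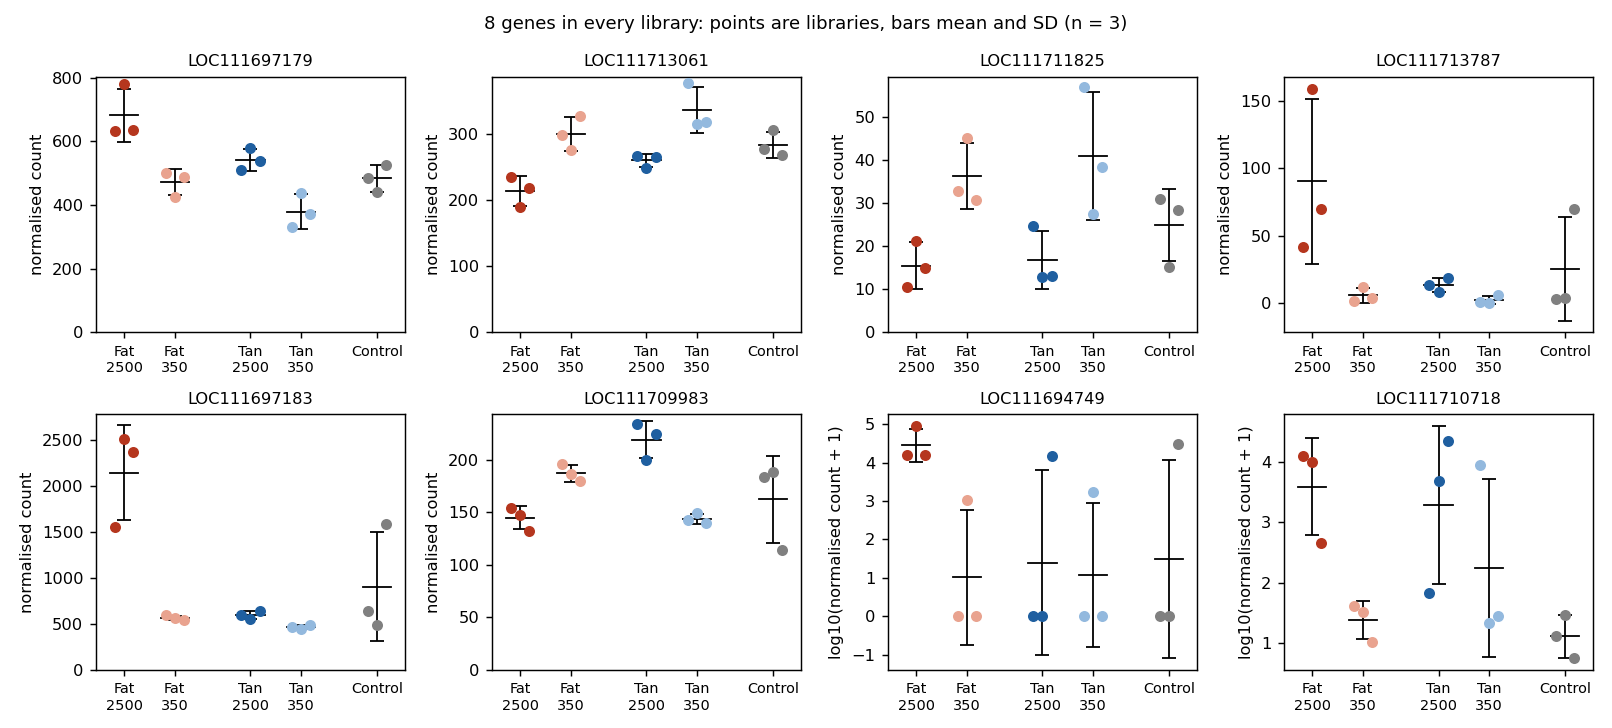
Normalised count (y axis; log10 of the count + 1 in the last 2 panels) of 8 genes in every library, by group (x axis; Fat is Fatouville and Tan is Tancarville, in mg/L). Points are libraries in replicate order, horizontal bars the mean and error bars the SD (n = 3). LOC111697179 lies higher and LOC111713061 lower at 2500 than at 350 mg/L within both sites, LOC111709983 has differences of opposite sign at the 2 sites, and LOC111694749 is at 0 in 6 of the 12 elutriate libraries.

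Across all tested genes, the genes completely separated by concentration were few and evenly balanced. In 58 genes (0.309%) all 6 libraries at 2500 mg/L were above all 6 at 350 mg/L, and in 54 genes (0.287%) all 6 were below. Their shifts were modest, with a median log2 fold change of 0.46 for the 58 and -0.32 for the 54, against 0.00 (-9.14e-05) for all genes tested. As the choice favours, these genes were steady between pools. The median SD within a group was 0.170 and 0.140 on the log2 scale for the 58 and the 54, against 0.234 for all genes. They were of ordinary abundance, with median mean normalised counts of 243 and 283, against 189.8 over all genes. None of the 58 averaged above 1000 normalised counts, where 8 of the 54 and 2724 of all 18799 genes tested lay. The median of the 58 was 206, 207 and 264 in Control, against 259, 249 and 245 at Tancarville 2500 mg/L. Control 3 was thus above the Tancarville 2500 mg/L libraries. The median of the 54 was 286, 308 and 272 in Control, against 269.7, 268 and 267 at Tancarville 2500 mg/L. Control 1 and 3 were below every 350 mg/L library in this median, of which the lowest was at 293.

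Separation within each site is a looser criterion. Within Fatouville the 3 libraries at 2500 mg/L lay above the 3 at 350 mg/L in 2267 genes (12.1%) and below them in 1671 (8.89%). Within Tancarville they lay above in 1255 (6.68%) and below in 1258 (6.69%). In 293 genes (1.56%) they lay above within both sites and in 187 (0.995%) below within both. Opposite orders were seen in 46 genes (0.245%) that were above in Fatouville and below in Tancarville, and in 38 (0.202%) that were below in Fatouville and above in Tancarville.

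Large fold changes were of another kind, since nearly all of them pointed upward and rested on some of the pools. At 2500 mg/L 784 genes (4.17%) averaged at least 2-fold higher and 21 (0.112%) at least 2-fold lower than at 350 mg/L. With quantile normalisation the numbers were 692 and 103. These genes were chosen by that difference, so their levels are a description. Of the 784, 465 had an unadjusted limma p under 0.05 and none passed after adjustment. In whole animals, a change in the number of cells of a type and a change in RNA per cell cannot be told apart.

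The 784 genes varied strongly between pools of the same group. Their median SD within a group was 1.59 on the log2 scale, against 0.234 for all genes, beside a median log2 fold change of 1.98. Their median normalised count was 168, 119 and 74.8 at Fatouville 2500 mg/L, against 7.99, 19.8 and 5.79 at Fatouville 350 mg/L. It was 10.1, 33.8 and 130.1 at Tancarville 2500 mg/L, against 35.3, 11.2 and 7.87 at Tancarville 350 mg/L. The Fatouville concentrations did not overlap, but at Tancarville replicate 3 alone stood far above, replicate 1 at 2500 mg/L was below replicate 1 and 2 at 350 mg/L, and replicate 2 was just below replicate 1 at 350 mg/L. Control had 6.57, 8.60 and 16.1.

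The same unevenness showed in counts of genes. Of the 784, 766, 653 and 620 were at least 2-fold above the median of the Fatouville 350 mg/L libraries in Fatouville 2500 mg/L replicate 1, 2 and 3, beside 7.56, 5.96 and 5.92% of all genes tested. In Tancarville 2500 mg/L replicate 1, 2 and 3, 117, 414 and 708 were at least 2-fold above the median of the Tancarville 350 mg/L libraries, beside 1.79, 3.40 and 6.60% of all genes. Of the 350 mg/L libraries themselves, Tancarville replicate 1 had 387 of the 784 that far above its site's median (3.13% of all genes) and Fatouville replicate 2 had 290 (4.36% of all genes). The highest of the 12 values was in Tancarville 2500 mg/L replicate 3 for 265 of the 784 genes, in Fatouville 2500 mg/L replicate 1 for 210, and in Fatouville 2500 mg/L replicate 2 for 206. The 784 genes together took 3.75, 5.33 and 1.96% of the reads at Fatouville 2500 mg/L, against 0.284, 0.506 and 0.119% at Fatouville 350 mg/L. They took 0.445, 1.03 and 4.44% at Tancarville 2500 mg/L, against 1.404, 0.268 and 0.215% at Tancarville 350 mg/L.

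By level, large positive differences were most frequent among genes with few reads. At least 2-fold higher were 318 of 4390 genes (7.24%) that averaged below 50 normalised counts, 240 of 5260 (4.56%) between 50 and 200, 173 of 6425 (2.69%) between 200 and 1000, and 53 of 2724 (1.95%) above 1000. Of the 21 genes that were at least 2-fold lower, 19 averaged below 50. The 21 had a median normalised count of 45.2 in Fatouville 350 mg/L replicate 2, against 8.68 to 19.4 in the other libraries at 350 mg/L. A list drawn anew without that library held 12 genes, 5 of them among the 21. Without Fatouville 350 mg/L replicate 3 it held 48, 19 of them among the 21. It held 30 to 41 without Tancarville 2500 mg/L replicate 1 or 3 or Tancarville 350 mg/L replicate 3. The same range applied without Fatouville 2500 mg/L replicate 1 or Fatouville 350 mg/L replicate 1. The number of genes at least 2-fold higher was 657 to 893 whichever library was left out.

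**Figure D3:**
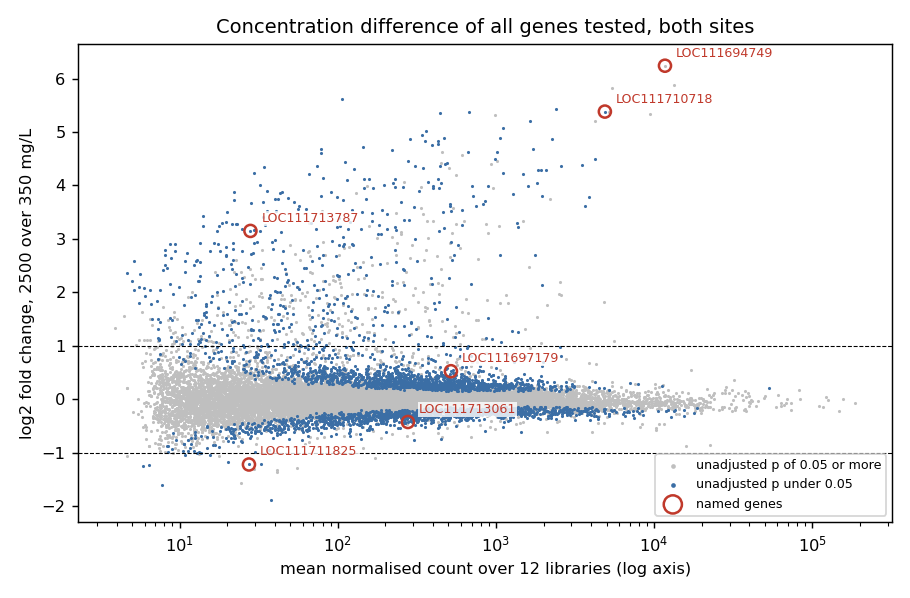
Log2 fold change of 2500 over 350 mg/L (y axis) against the mean normalised count over the 12 libraries (x axis, log scale) for the 18799 genes tested, with genes at an unadjusted limma p under 0.05 in blue, and with the named genes of the comparison labelled. Dashed lines mark 2-fold changes, with 784 genes above the upper line and 21 below the lower one.

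Some of the largest differences came from genes that were near absent in some pools and abundant in others. After the values were seen, genes were picked that had 3 reads or fewer in at least 1 of the 12 libraries and at least 1000 normalised counts in another, which gave 64 genes. Of these, 61 were among the 784 (4.17% of all genes) and 1 among the 21 (0.112% of all genes), as the choice of such genes favours. None of the 64 was called higher within Fatouville, where 1.77% of all genes and 131 of the 784 were. The choice of genes that differ widely between pools works against a call, so this count is a description. At least 100 normalised counts were reached by 61, 51 and 42 of the 64 at Fatouville 2500 mg/L, against 0, 28 and 0 at Fatouville 350 mg/L. For Tancarville the numbers were 1, 25 and 61 at 2500 mg/L, against 29, 15 and 1 at 350 mg/L. In Control they were 0, 0 and 26.

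The gene with the highest log2 fold change of all, LOC111694749, named after its values were seen, was one of them. It had 15769, 90485 and 16057 normalised counts at Fatouville 2500 mg/L and 0, 0 and 15317 at Tancarville 2500 mg/L. Its 350 mg/L libraries held 0, 1068 and 0 (Fatouville) and 0, 1754 and 0 (Tancarville). Thus 4 of 6 libraries at 2500 mg/L and 2 of 6 at 350 mg/L held it. In Control it was at 0, 0 and 30152, so that a pool without elutriate exceeded all but 1 of the exposed ones. The log2 fold change was 6.24 with an SE of 3.61 (limma adjusted p = 0.413).

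A second profile was that of LOC111710718, also named after its values were seen. It had 12606, 9829.95 and 456 normalised counts at Fatouville 2500 mg/L and 66.0, 4802 and 21997 at Tancarville 2500 mg/L. Its 350 mg/L libraries held 39.9, 32.0 and 9.65 (Fatouville) and 8665, 20.4 and 27.5 (Tancarville), with 1 library, Tancarville replicate 1, above the others. Control was low throughout, at 12.2, 28.7 and 4.73. The log2 fold change was 5.38 (SE 2.02, limma adjusted p = 0.248), and DESeq2 gave an adjusted p of 0.0383. On the log2 scale over the 12 libraries, 65 other genes correlated at 0.9 or more with LOC111694749, 62 of them among the 784, and 201 with LOC111710718, 189 of them among the 784. The 784 were 4.17% of all genes tested. Both named genes belong to the 784, so a like profile favours membership and these counts are a description.

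**Figure D4:**
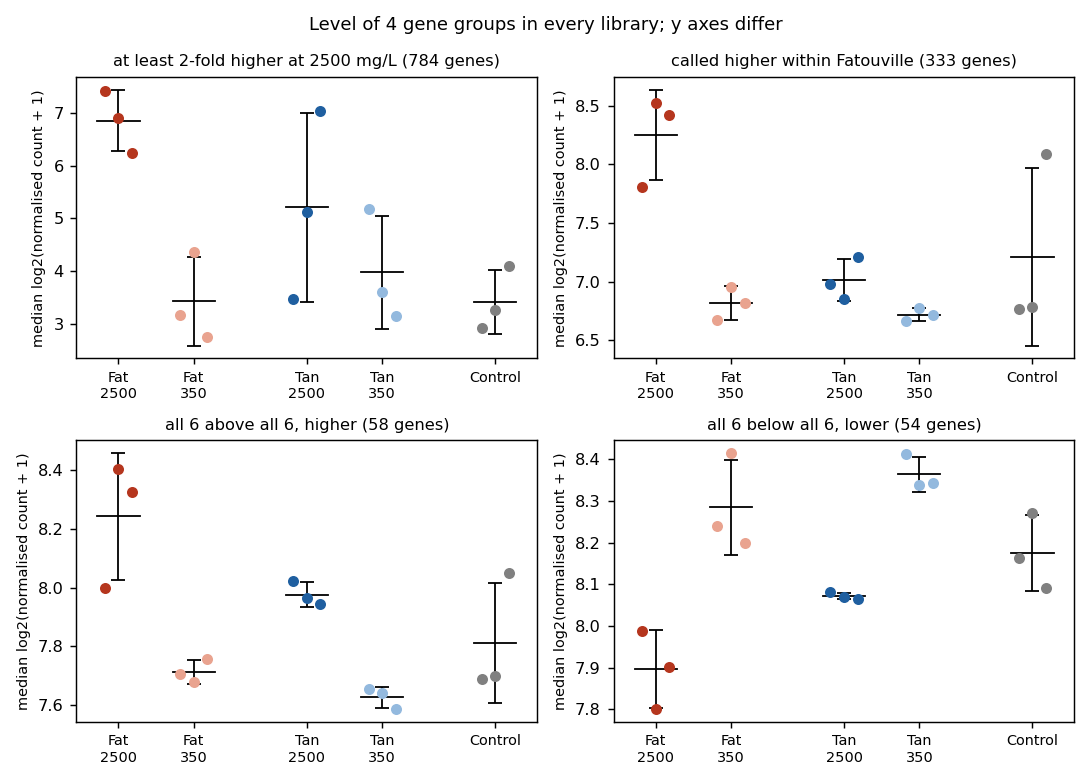
Median log2(normalised count + 1) (y axes, which differ) of 4 gene groups in every library, by group (x axis; Fat is Fatouville and Tan is Tancarville, in mg/L), with bars for the mean and SD (n = 3). The 784 genes at least 2-fold higher spread widely among the Tancarville pools, the 333 genes called higher within Fatouville are also high in Control 3, and the 58 and 54 genes separated over all 12 libraries differ by small, even steps.

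The concentration contrast was then taken within each site. Within Fatouville limma called 358 of 18799 genes (1.9%), 333 higher (1.77%) and 25 lower (0.133%). Within Tancarville it called 0 (0%), edgeR called 0 and DESeq2 1. Unadjusted limma p-values were under 0.05 for 3447 genes (18.3%) within Fatouville, 2084 higher (11.1%) and 1363 lower (7.25%), and edgeR called 394 there and DESeq2 992. Within Tancarville they were under 0.05 for 946 genes (5.03%), 496 higher (2.64%) and 450 lower (2.39%). Differences of at least 2-fold were seen in 1015 higher (5.4%) and 128 lower genes (0.681%) within Fatouville, and in 556 higher (2.96%) and 83 lower genes (0.442%) within Tancarville. Quantile normalisation, which moved the median log2 fold change of all genes to -0.10 within Fatouville, gave 241 higher and 102 lower genes there.

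More of the genes called within Fatouville had the same sign within Tancarville than did all genes. The Tancarville libraries did not enter the Fatouville fold changes, but they did enter the filter and the spread behind the calls, so they were not independent of the choice of these genes. Of the 333 genes called higher, 282 (84.7%) were also higher at Tancarville 2500 than 350 mg/L, beside 51.4% of all genes tested. Their median log2 fold change there was 0.23, against 0.01 for all genes, and 44 (13.2%) were higher there with an unadjusted limma p under 0.05, against 2.64% of all genes. Of the 25 called lower, 18 (72.0%) were lower within Tancarville, beside 48.6% of all genes, with a median of -0.09. Within Fatouville itself the medians were 1.23 and -0.58, values that the choice of genes fixes in part. Over all 18799 genes the fold changes of the sites, which share no library, had a Pearson r of 0.627 and a Spearman rho of 0.300, and 60% of genes (11288) had the same sign. Among the 9399 genes with the smaller SD within groups r was 0.286 and rho 0.289, with the same sign in 60.5%. Genes are not independent replicates, and these values describe the libraries.

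**Figure D5:**
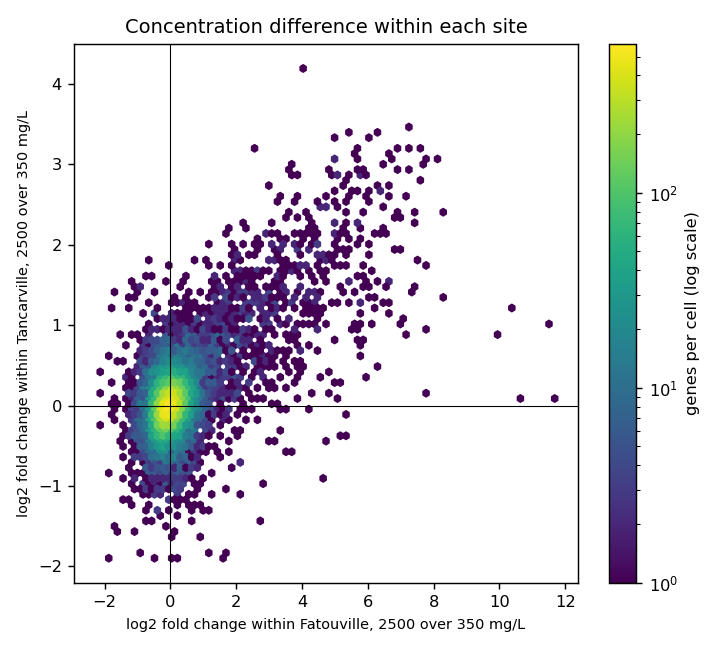
Log2 fold change of 2500 over 350 mg/L within Fatouville (x axis) and within Tancarville (y axis) for the 18799 genes tested, with colour for the number of genes per cell (log scale). Most genes lie near 0 at both sites, and a tail of genes is higher at both, further along the Fatouville axis, with a Pearson r of 0.627.

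The level of the 333 genes in Control differed between pools. Their median normalised count was 223, 366 and 342 at Fatouville 2500 mg/L, against 100.8, 123 and 112 at Fatouville 350 mg/L. It was 125, 114 and 147 at Tancarville 2500 mg/L, against 100.5, 108 and 104 at Tancarville 350 mg/L. In Control it was 108, 109 and 271, so that Control 3 lay within the range of the Fatouville 2500 mg/L libraries. Of the 333 genes, 146 (43.8%) were more than 2-fold higher in Control 3 than in both other controls, against 424 of all 18799 genes (2.26%). For the 784 genes this was so in 294 (37.5%). What set Control 3 apart was not tested.

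The count within Fatouville depended on single libraries. Leaving out replicate 1, 2 or 3 of Fatouville 2500 mg/L gave 1097, 57 or 38 genes. It was 90, 313 or 95 when replicate 1, 2 or 3 of Fatouville 350 mg/L was left out. For replicate 1, 2 or 3 of Tancarville 350 mg/L it was 240, 242 or 238, and for those of Tancarville 2500 mg/L 282, 262 or 462. In a fit of all 15 libraries, which takes in the spread of the controls, 1 gene was called.

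The largest called rises within Fatouville were those of genes absent at 350 mg/L. LOC111706649 had 281, 579 and 149 normalised counts at Fatouville 2500 mg/L, against 0, 0 and 0 at Fatouville 350 mg/L. With 982 reads against none, it was at least 347-fold higher, counted against a floor of 3 reads over the 3 libraries (limma adjusted p = 0.0392). At Tancarville it had 1.12, 0 and 263 at 2500 mg/L, against 0 in each library at 350 mg/L, and Control was at 0, 0 and 89.9. LOC111718174 had 42.8, 171 and 93.4 at Fatouville 2500 mg/L, against 0 in the 3 libraries at 350 mg/L, a rise of at least 106-fold by the same floor (limma adjusted p = 0.0372). It was at 0, 0 and 100.5 at Tancarville 2500 mg/L, against 0 throughout at Tancarville 350 mg/L, and at 0.939, 0.956 and 30.3 in Control. Both calls were lost by edgeR (adjusted p = 0.26 and 0.272), and in 15 of 27 and 14 of 26 alternatives in all. Over those alternatives the adjusted p ranged from 2.56e-05 to 0.26 for LOC111706649 and from 5.22e-06 to 0.272 for LOC111718174.

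The largest called falls within Fatouville were about 2-fold. LOC111714820 had 27.6, 19.1 and 24.4 normalised counts at Fatouville 2500 mg/L, against 45.9, 59.3 and 54.0 at Fatouville 350 mg/L (log2 fold change -1.14, SE 0.22, limma adjusted p = 0.0213). At Tancarville it stood at 35.8, 37.3 and 35.7 at 2500 mg/L, against 38.6, 31.7 and 35.4 at 350 mg/L. LOC111696256 had 72.2, 59.4 and 53.1 at Fatouville 2500 mg/L, against 120.8, 134 and 129 at Fatouville 350 mg/L (log2 fold change -1.05, SE 0.20, limma adjusted p = 0.0164). At Tancarville it stood at 69.4, 92.2 and 114 at 2500 mg/L, against 91.8, 108 and 119 at 350 mg/L. The calls were lost in 10 of 26 and 5 of 27 alternatives, with every log2 fold change still negative.

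A test of the difference between the sites' concentration responses gave no call. By limma 0 genes (0%) passed the interaction, 1473 (7.84%) had an unadjusted p under 0.05, and the smallest adjusted p was 0.0897. Of the 1473, 924 (4.92%) had the more positive response at Fatouville and 549 (2.92%) at Tancarville. The responses differed at least 2-fold in 887 genes (4.72%) toward Fatouville and 269 (1.43%) toward Tancarville. edgeR called 0 genes and DESeq2 61, and limma called 75 without Fatouville 2500 mg/L replicate 1 and 46 without Tancarville 2500 mg/L replicate 3. Of the 333 genes called higher within Fatouville, 283 (85.0%) had an unadjusted limma interaction p under 0.05, against 7.84% of all genes. Of the 25 called lower it was 19 (76%). The choice of these genes by their Fatouville difference favours such values, and none passed after adjustment. A gene called within Fatouville is therefore not shown to respond differently at Tancarville by the limma test.

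The gene with the smallest interaction p, LOC111697183, named after its values were seen, also had the smallest p within Fatouville. It had 1552, 2505 and 2365 normalised counts at Fatouville 2500 mg/L, against 589.98, 561 and 542 at Fatouville 350 mg/L, where the fold change on the log2 scale was 1.89 (SE 0.15, limma adjusted p = 0.000125). It had 597, 551 and 637 at Tancarville 2500 mg/L, against 461, 446 and 486 at Tancarville 350 mg/L, where the log2 fold change was 0.36 (SE 0.15, limma adjusted p = 0.916). The concentrations did not overlap at either site. The interaction was 1.54 (SE 0.21, limma adjusted p = 0.0897). It passed without Fatouville 2500 mg/L replicate 1 (limma adjusted p = 0.00033), without Tancarville 2500 mg/L replicate 3 (0.0256) and by DESeq2 (2.82e-07). Without the 2 libraries far from their group centres it also passed (limma adjusted p = 0.00607). The same was so without 3 such libraries, chosen after seeing the data (limma adjusted p = 0.0202). Over all alternatives the adjusted p ranged up to 0.631. Control stood at 643, 481 and 1578, with Control 3 again at the level of Fatouville 2500 mg/L.

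LOC111709983, likewise named after its values were seen, had differences of opposite sign at the sites. It had 154, 147 and 133 normalised counts at Fatouville 2500 mg/L, against 196, 186 and 179 at Fatouville 350 mg/L. Its Tancarville 2500 mg/L libraries held 234, 199.6 and 225, against 143, 149 and 139.7 at Tancarville 350 mg/L. The groups did not overlap at either site, and the interaction was -0.97 (SE 0.17, limma adjusted p = 0.175), with log2 fold changes of -0.37 for Fatouville and 0.60 for Tancarville. It passed without Fatouville 2500 mg/L replicate 1 (limma adjusted p = 0.0352) and by DESeq2 (0.00493), over a range of alternatives up to 0.64. Control was at 184, 188 and 114.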

How the data were processed

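Whole-animal mRNA was sequenced, 1 library per pool of males. The authors deposited a signal (reads of each gene over a library's size factor) and a score (Cook's distance of each gene in each library), per the file headers. STAR, Salmon, HTSeq 0.11.2 and DESeq2 are named, with no role, per the submitters' processing notes. The sources used here give neither build, annotation nor strand setting. Reads of near-identical or overlapping genes could lie with either gene, which was not checked. All values were whole multiples of 1 read within a tolerance of 1e-06, so reads were recovered for edgeR and DESeq2 (median of 180 per tested gene in a library). The floor of 3 reads covers counting error only, since no molecular identifiers are named, while the 95% limma interval covers the spread between pools.

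Values were tested as log2(value + 1) in limma 3.58.1 under R 4.3.3, with an intensity trend, robust moderation and the model site plus concentration. The interaction and within-site contrasts used 1 term per group. The filter (10 or more in 3 or more of the 12 libraries) left out 4929, all 31 tRNA identifiers among them. P-values were adjusted by Benjamini-Hochberg over all 18799 genes. Alternatives were edgeR 4.0.16 (quasi-likelihood), DESeq2 1.42.0, other pseudocounts, filters, scalings, replicate blocks and libraries left out. The code was tested on simulated data. Libraries of a group differed beyond sampling noise (the lowest chi-square over its degrees of freedom was 19.5), and each counted once. The labels call the pools biological replicates, and p-values measure the spread between pools. In the model site plus concentration that spread also holds any difference between the sites' concentration responses.

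The rule for named genes took, where no table names the identifiers, at most 2 genes per direction and comparison, the largest called changes (same sign at both sites for the pooled comparison) or, with none called in the pooled comparison, the smallest p. 4 genes named otherwise are marked. The 31 product-name lists matched 0 identifiers. The members, the comparison and the lists were chosen with earlier results of these data known.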

Additional observations from a re-analysis of the deposited data

Results flagged for a closer look

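Among the 6 libraries of 1 concentration, a library was marked when it lay far from the other 5 by Dixon's criterion. This happened in 4 of 48 groups of 6 values examined. Chance marks about 1 in 20 groups of independent, normally distributed values. These groups join both sites and hold skewed counts, some of genes chosen after their values were seen, and the rate that chance gives for them was not computed. LOC111694749 was at 90485 normalised counts in Fatouville 2500 mg/L replicate 2, against 0 to 16057 in the other libraries at 2500 mg/L. LOC111710718 was at 8665 in Tancarville 350 mg/L replicate 1, against 9.65 to 39.9 in the others at 350 mg/L. The 21 genes at least 2-fold lower had a median of 45.2 in Fatouville 350 mg/L replicate 2, against 8.68 to 19.4. The 556 genes at least 2-fold higher within Tancarville had a median of 40.6 in Tancarville 350 mg/L replicate 1, against 5.79 to 17.9.

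The number of genes detected at equal depth differed between concentrations by 230.6 genes within Fatouville and by -18.6 within Tancarville. The difference of 249 between the sites gave a 2-sided exact permutation p of 0.025 before adjustment over 4 library measures. With labels permuted within sites, that p refers to no concentration difference at either site. It is not a test of equal differences at both sites. Its part in the gene results was not tested.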

How the results depend on the processing

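For the concentration difference over both sites limma called 0 genes under pseudocounts of 0.5 and 5, no filter, a mean filter of 50, and quantile and TMM scaling. It also called 0 with no moderation trend, no site term, either replicate block, and all 15 libraries, the last a fit with group terms. With a library left out it called 0 to 1 (1 without Tancarville 350 mg/L replicate 3). It called 133 with 4 group terms; edgeR called 17 and DESeq2 768. The interaction gave 0 to 75 with a library left out, 61 by DESeq2, and 151 and 127 without the 2 and the 3 libraries far from their group centres, the last chosen after seeing the data. Within Fatouville the 358 became 992 by DESeq2, 224 without trend and robust moderation, 1 with all 15 libraries, 202 with the site's 6 libraries alone (chosen after seeing the data), and 38 to 1097 with a library left out. Within Tancarville DESeq2 called 1 and every limma alternative 0. Genes at least 2-fold higher numbered 657 to 893 with a library left out and 466 with a mean filter of 50, which tests fewer genes. Genes at least 2-fold lower numbered 32 and 9 with pseudocounts of 0.5 and 5, 77 without a filter, 2 with a mean filter of 50, 103 with quantile scaling, 66 and 64 by edgeR and DESeq2, and 12 to 48 with a library left out. The first principal component difference was 57.6 to 89.5 with a library left out (exact permutation p of 0.015 to 0.06), and 67.4 without the 2 libraries far from their group centres (exact permutation p = 0.06). The cause of these changes was not tested. No named gene changed its direction.

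Whether replicate numbers pair the pools was checked by correlating deviations from group means. Same-number correlations were -0.124, -0.302 and 0.173 between the Fatouville concentrations and -0.534, -0.130 and -0.441 between the Tancarville ones, so the numbers were not taken to pair the concentrations. Of the 6 pairs of groups, the 350 mg/L groups of both sites were the 1 pair with all 3 above 0.1 (0.103, 0.320 and 0.362). With a replicate block 0 genes were called over both sites and 287 within Fatouville, and 0 and 152 with a replicate block within site. Genes at few reads are limited by depth, and fold changes of genes at 0 in a group are bounds: 5 of the 784 genes were at 0 in all libraries at 350 mg/L, and placing them at their bound left the median at 1.98.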

Other observations

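The authors' deposited Cook's distances, which measure how far a library moves a gene's fit, were spread unevenly over the 784 genes at least 2-fold higher at 2500 mg/L. The largest distance among all 15 libraries lay in Tancarville 350 mg/L replicate 1 for 236 of the 784 genes (30.1%, against 5.73% of all genes tested), in Control 3 for 192 (24.5%, against 8.52%) and in Tancarville 2500 mg/L replicate 3 for 188 (24.0%, against 9.72%).

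The 64 genes near absent in some pools and abundant in others took 0.923, 2.80 and 0.799% of the reads at Fatouville 2500 mg/L, against 0.00205, 0.145 and 0.00123% at Fatouville 350 mg/L. They took 0.00639, 0.0842 and 0.875% at Tancarville 2500 mg/L, against 0.125, 0.0696 and 0.00375% at Tancarville 350 mg/L. In Control they took 0.00137, 0.00184 and 0.966%, so the share in Control 3 was above that of 5 of the 6 libraries at 2500 mg/L.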
